A study of Homo sapiens with 9 samples.

Results

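The genes of integrin adhesion were followed in MDA-MB-231, an established line of human triple-negative breast cancer cells, after depletion of LOXL2, a lysyl oxidase-like enzyme. The set held 43 genes, of 63657 in the expression table, chosen by symbol: 10 alpha integrins, 7 beta integrins, 6 genes of laminin-332 and the hemidesmosome, and 20 focal adhesion adaptors. Expression was measured by RNA-seq in 2 libraries of cells infected with a short hairpin RNA against LOXL2 (shLOXL2) and in 2 libraries of cells with a control hairpin (shControl). The series also holds ChIP-seq of H3 and of H3K4ox (histone H3 oxidised at lysine 4) and ATAC-seq of the same line, which were not used here. The labels do not tie the replicates to separate cultures, and the p-values therefore measure only the spread between these libraries, which may be technical, and how many hairpins were used is not stated in the labels.

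Integrins are receptors built of 1 alpha and 1 beta chain that span the membrane. The pairing decides which matrix protein is bound, collagens, fibronectin, vitronectin or laminins, while the short tail of the beta chain recruits talin and the kindlins, and through them vinculin, paxillin and focal adhesion kinase, to actin in focal adhesions. The beta 4 chain, which pairs with alpha 6, is different. It binds plectin, which links it to keratin filaments, and it forms the hemidesmosome, the anchor of epithelial cells on laminin-332. Breast epithelial cells of the basal layer hold both kinds of contact.

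The knockdown was seen in the targeted gene: LOXL2 stood at 15.2 and 12.1 FPKM in the shLOXL2 libraries, against 85.5 and 84.5 FPKM in the shControl libraries (FPKM counts fragments relative to transcript length and to the library's total). FPKM sums over all genes were 1330440 and 1369370 in shLOXL2 and 1244380 and 1221570 in shControl, and the median log2 change over all genes tested was -0.0041. All 6 genes listed as markers of the line (VIM, CD44, EGFR, KRT18, KRT8 and MSN) were present, from 34.3 FPKM for EGFR to 2062 FPKM for VIM. The basal keratins KRT5 and KRT14 were not among them. KRT5 was listed at 0 in all 4 libraries and KRT14 did not exceed 0.226 FPKM, so these markers do not establish a basal identity. Among the 6 listed genes KRT18, KRT8 and MSN rose in shLOXL2, and CD44 and EGFR fell (limma, adjusted p below 0.05). Of 6 hormone receptor and luminal markers 3 averaged at least 1 FPKM, and of the markers of other cell types 2 of 9 fibroblast, 2 of 7 haematopoietic and 1 of 5 endothelial genes did so. The summed fibroblast markers were 12.4 and 10.2 FPKM in shLOXL2, against 6.07 and 7.43 FPKM in shControl. COL1A1 and PDGFRB, the 2 fibroblast markers high enough to be tested, made up most of these sums. COL1A1 rose, at 8.02 and 7.43 FPKM in shLOXL2 and 4.12 and 4.73 FPKM in shControl, and PDGFRB, at 4.05 and 2.003 FPKM in shLOXL2 and 1.48 and 2.24 FPKM in shControl, did not pass (limma adjusted p of 0.0287 and 0.409). The other 7 stayed at or below 0.439 FPKM in every library. The part of these markers in the results below was not tested.

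Of the 43 adhesion genes, 33 averaged at least 1 FPKM over the 4 libraries and were tested, and in shLOXL2 cells 16 of these rose and 5 fell (limma, adjusted p below 0.05 over 16987 genes). Over all genes tested, 16.9% were called, 8.35% that rose and 8.54% that fell. The 33 genes all averaged at least 5 FPKM, and among the 9240 protein-coding genes at that level 23.5% were called, against 63.6% of the adhesion genes. The 2 groups did not overlap for 31 of the 33, where this was so for 64.6% of all genes tested and for 73.5% of the protein-coding genes at that level. The median log2 change of the 33 was 0.24 and their median absolute change 0.36, against 0.18 over all genes tested, so most changes were modest. Log2 changes are of FPKM + 1 and understate changes of low genes. 2 of the 33 reached an absolute log2 change of 1, ITGB4 upward and CAV2 downward, and FERMT2 lay just short of it. These counts describe a set chosen with results of the same data known, and no test of the set was made.

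**Figure D1:**
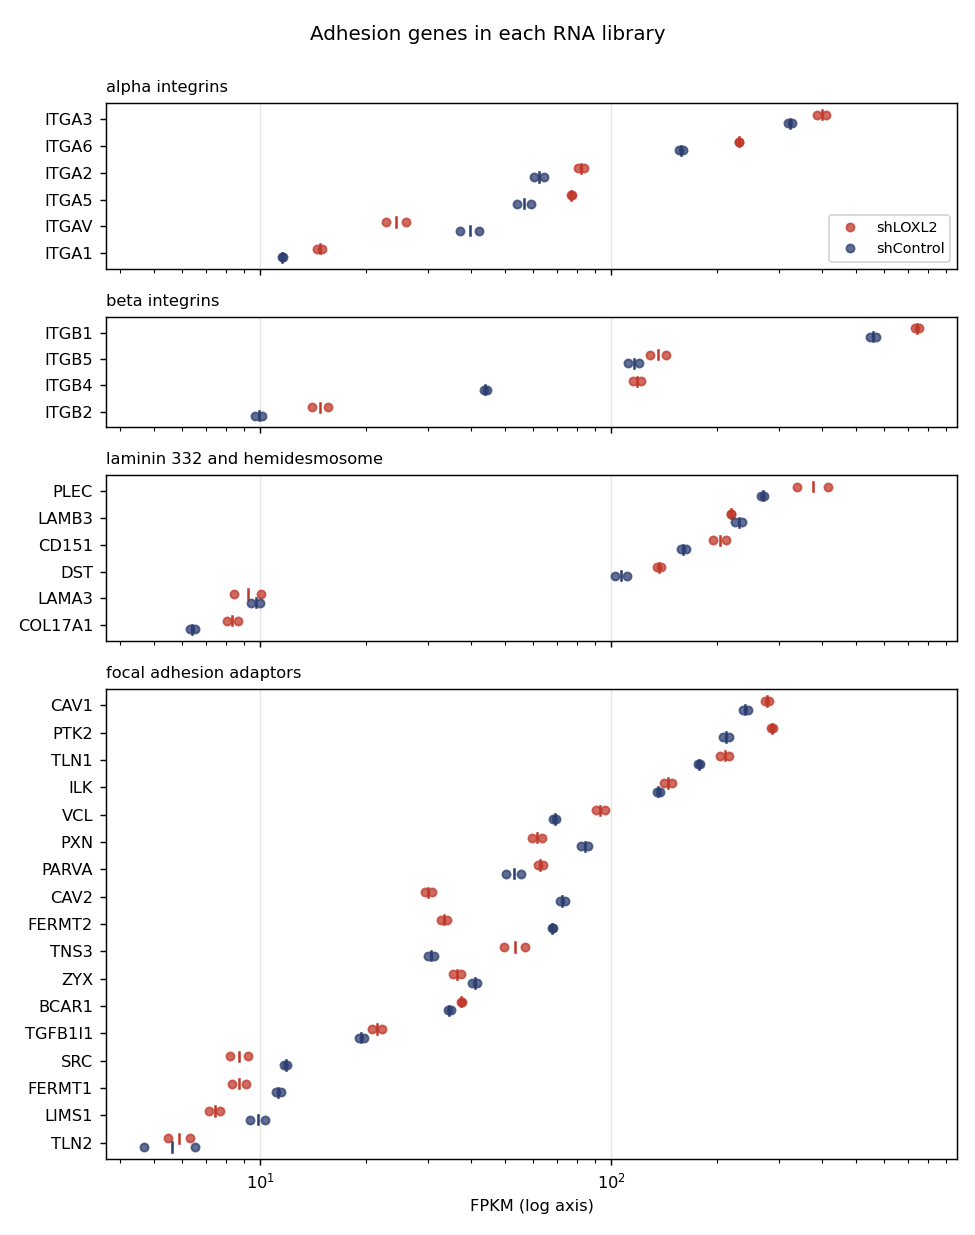
FPKM (log axis) of the 33 tested adhesion genes in each library, by subgroup; points are libraries, short vertical lines the mean of 2, shLOXL2 in red above shControl in blue. The red and blue points lie apart for 31 of the 33 genes, the exceptions being LAMA3 and TLN2.

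Among the alpha integrins, which set the ligand, 5 of the 6 tested rose by 1.23 to 1.47 times and ITGAV fell to 0.616 of its shControl level. ITGA3, the laminin receptor chain with the highest level of the family, stood at 409.9 and 386 FPKM in shLOXL2 and at 319.8 and 328 FPKM in shControl. ITGA6, which pairs with beta 1 or beta 4 to bind laminins, stood at 231 and 232 FPKM in shLOXL2 and at 159.8 and 156 FPKM in shControl. The libraries of each group agreed closely for ITGA6, and its log2 change of 0.55 ± 0.031 (SE) had the smallest adjusted p of the alpha chains (limma adjusted p = 0.0131). The 250 bases before the most upstream start of ITGA6 in the RefSeq promoter table (GRCh38.p14, chr2:172427086-172427335, plus strand) are shown because ITGA6 rose beside its partner chain. Capitals mark matches to CAGGTG, the E-box bound by SNAIL-type repressors, on either strand.
ITGA6: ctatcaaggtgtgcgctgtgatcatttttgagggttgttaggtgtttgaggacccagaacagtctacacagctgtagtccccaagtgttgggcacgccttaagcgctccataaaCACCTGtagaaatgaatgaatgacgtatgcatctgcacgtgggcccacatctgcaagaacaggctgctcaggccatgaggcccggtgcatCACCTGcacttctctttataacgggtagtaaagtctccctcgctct
It holds 2 such matches, at -136 to -131 and at -46 to -41 from the start, and 17.5% of 27305 RefSeq promoters of the same length hold at least 1. A match describes the letters and is not a site shown to be bound.

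The collagen receptor chain ITGA2 had 80.4 and 83.8 FPKM in shLOXL2 and 64.4 and 60.2 FPKM in shControl. Its relative ITGA1, also a collagen receptor chain, was lower throughout, at 15.1 and 14.5 FPKM in shLOXL2 and 11.6 and 11.6 FPKM in shControl. ITGA5, the fibronectin receptor chain, had 76.6 and 77.3 FPKM in shLOXL2 and 54.1 and 59.0 FPKM in shControl. All 3 rose, by log2 changes of 0.39 ± 0.052, 0.33 ± 0.041 and 0.44 ± 0.055 (SE, limma adjusted p of 0.0298, 0.0277 and 0.0277). ITGAV, the chain of vitronectin receptors, went the other way, with 22.8 and 26.0 FPKM in shLOXL2 and 42.2 and 37.0 FPKM in shControl (log2 change -0.68 ± 0.10, SE, limma adjusted p = 0.0361). ITGAV fell while the other 5 chains rose, and its share of the summed alpha integrin FPKM was 2.95% ± 0.310 in shLOXL2 and 6.07% ± 0.547 in shControl (SD, n = 2). ITGA6 held 28.0% ± 0.460 of that sum in shLOXL2 and 24.2% ± 0.423 in shControl. With any 1 library left out 0 alpha chains passed limma's threshold, although all 6 kept an unadjusted p below 0.05 in each of these fits, which have 1 residual degree of freedom.

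4 alpha chains were below the filter and were not tested. ITGA10, a cartilage collagen receptor chain, had 0.951 and 0.784 FPKM in shLOXL2 and 0.693 and 0.424 FPKM in shControl. ITGA7, a muscle laminin receptor chain, was between 0.136 and 0.291 FPKM in all 4 libraries. ITGA4 and ITGA11 did not exceed 0.0563 FPKM in any library, and ITGA4 was listed at 0 in shLOXL2 replicate 2.

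Of the beta integrins 3 of the 4 tested rose and 0 fell, and ITGB4 had the largest rise of the 33 genes. ITGB4, the hemidesmosomal chain, had 122 and 116 FPKM in shLOXL2 and 44.2 and 43.4 FPKM in shControl, a rise of 2.71 times. Its log2 change was 1.42 ± 0.041 (SE, limma adjusted p = 0.0115), and 3.80% of all genes tested had an absolute change at least as large. ITGB1, the common partner of most alpha chains and the highest gene of the set, had 734 and 752 FPKM in shLOXL2 and 569 and 548 FPKM in shControl (log2 change 0.41 ± 0.038, SE, limma adjusted p = 0.0188). The pseudogene ITGB1P1 was listed at 172 and 181 FPKM in shLOXL2 and 135 and 131 FPKM in shControl, so fragments may be split between the copies and the level of ITGB1 is uncertain. ITGB2, known as the leukocyte beta chain, had 15.6 and 14.0 FPKM in shLOXL2 and 10.1 and 9.66 FPKM in shControl (log2 change 0.54 ± 0.071, SE, limma adjusted p = 0.0300). Its antisense gene ITGB2-AS1 was listed at 1.62 and 1.43 FPKM in shLOXL2 and 0.634 and 0.938 FPKM in shControl.

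ITGB5, which pairs with alpha V, had 129 and 144 FPKM in shLOXL2 and 120.1 and 112 FPKM in shControl. Its libraries did not overlap, but its log2 change of 0.23 (95% interval 0.0037 to 0.46) did not pass (limma adjusted p = 0.136). Among the other partners of alpha V, ITGB3 had 0.738 and 0.791 FPKM in shLOXL2 and 0.779 and 0.492 FPKM in shControl. ITGB6 ran from 0.284 to 0.841 FPKM and ITGB8 from 0.768 to 0.892 FPKM over the 4 libraries. These 3 genes were below the filter, so of the 4 chains known as partners of alpha V beside ITGB1, ITGB5 alone was above 1 FPKM. For the beta chains 0 calls were left with one or the other shControl library left out, with 3 genes at an unadjusted p below 0.05 in limma, and ITGB4 alone was called with one or the other shLOXL2 library left out.

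The make-up of the beta chains differed between the groups. The summed beta integrin level was 1002 and 1028 FPKM in shLOXL2, against 745 and 714 FPKM in shControl. ITGB4 held 12.2% and 11.3% of that sum in shLOXL2 and 5.94% and 6.07% in shControl. ITGB1 held 73.2% in both shLOXL2 libraries and 76.3% and 76.7% in shControl, and ITGB5 held 12.9% and 14.0% in shLOXL2 and 16.1% and 15.6% in shControl. The shares of ITGB4 were higher in both shLOXL2 libraries, by 5.71 percentage points on average, and those of ITGB1 and ITGB5 lower, with differences of -3.30 and -2.45 points. Shares of 1 sum are not independent, and the FPKM of ITGB1 and ITGB5 were themselves higher in both shLOXL2 libraries. ITGB2 had 1.56% and 1.37% in shLOXL2 and 1.36% and 1.35% in shControl. With 2 libraries against 2 the exact two-sided permutation test gave p = 0.33 for each of these 4 shares, the smallest it can give, so none can pass. A share within a library does not depend on the scaling of that library. The beta sum and every beta share do carry the uncertain level of ITGB1, whose fragments may be split with ITGB1P1.

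**Figure D2:**
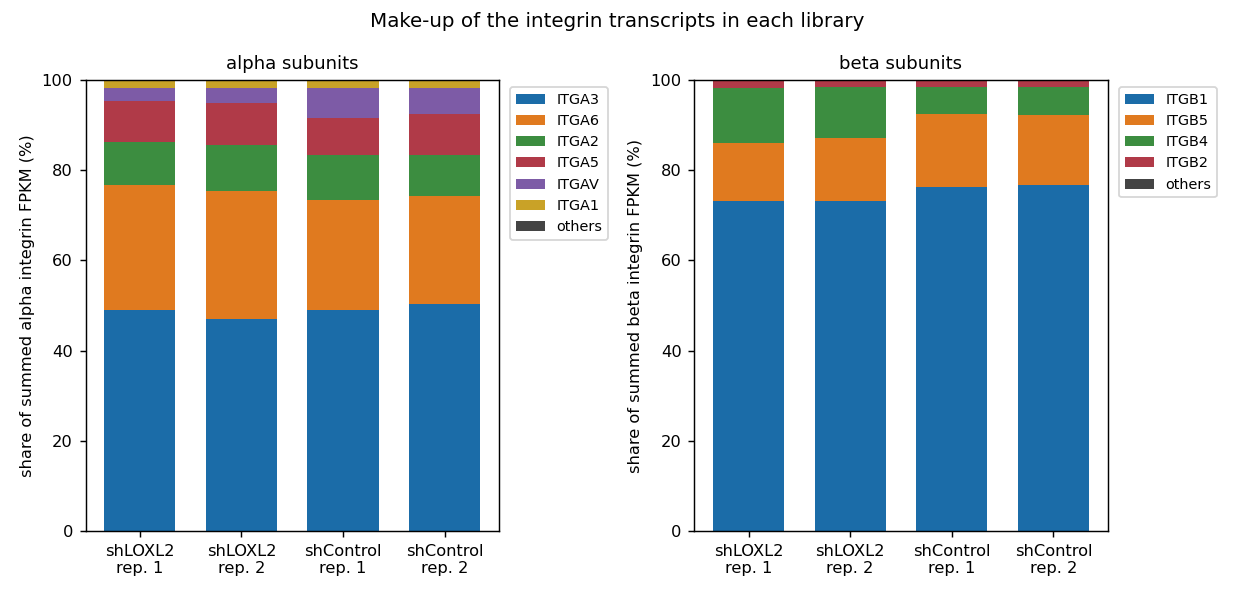
Share (percent) of each chain in the summed alpha (left) and beta (right) integrin FPKM of each library, shLOXL2 libraries left of shControl libraries; chains averaging under 1% are pooled as others and are too thin to see. ITGB4 takes 12.2% and 11.3% of the beta sum in shLOXL2 against 5.94% and 6.07% in shControl, and ITGAV takes a smaller part of the alpha sum in both shLOXL2 libraries.

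The partner chains of the hemidesmosomal integrin moved by different amounts. The ratio of ITGB4 to ITGA6 FPKM was 0.526 and 0.499 in shLOXL2 and 0.277 and 0.279 in shControl, a difference of 0.88 on the log2 scale (exact two-sided permutation test, p = 0.33, the smallest that 4 libraries allow). ITGA6 thus exceeded ITGB4 in every library, by less in shLOXL2 cells.

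Among the genes of laminin-332 and the hemidesmosome, 3 of 6 rose and 0 fell. CD151, a tetraspanin that associates with laminin-binding integrins, had 196 and 213 FPKM in shLOXL2 and 163 and 158 FPKM in shControl. DST, the dystonin gene, whose epithelial form is a hemidesmosome plaque protein, had 139 and 136 FPKM in shLOXL2 and 111 and 102 FPKM in shControl. Values are per gene and do not tell this form of DST from its others. COL17A1, the transmembrane collagen of the hemidesmosome, had 8.63 and 8.03 FPKM in shLOXL2 and 6.53 and 6.30 FPKM in shControl. These 3 rose by similar log2 changes of 0.35 ± 0.057, 0.36 ± 0.052 and 0.33 ± 0.060 (SE, limma adjusted p of 0.0413, 0.0336 and 0.0479). All 3 calls were lost without the filter on low values, and also under a prior variance that had no intensity trend. PLEC, the plectin gene that links beta 4 to keratin, had 416 and 338 FPKM in shLOXL2 and 267 and 273 FPKM in shControl. Its shLOXL2 libraries were both higher but lay far apart, and the log2 change of 0.47 (95% interval 0.13 to 0.82) did not pass (limma adjusted p = 0.0829).

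The 2 laminin chains of the set gave no call. LAMB3, the beta 3 chain, had 219.6 and 220.2 FPKM in shLOXL2 and 226 and 236 FPKM in shControl, a log2 change of -0.069 (95% interval -0.17 to 0.036, limma adjusted p = 0.271). LAMA3, the alpha 3 chain, had 10.1 and 8.41 FPKM in shLOXL2 and 10.005 and 9.42 FPKM in shControl, and its groups overlapped (log2 change -0.071, 95% interval -0.37 to 0.23, limma adjusted p = 0.663). With any 1 library left out 0 of the 6 genes passed limma's threshold, with 1 to 4 at an unadjusted p below 0.05.

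**Figure D3:**
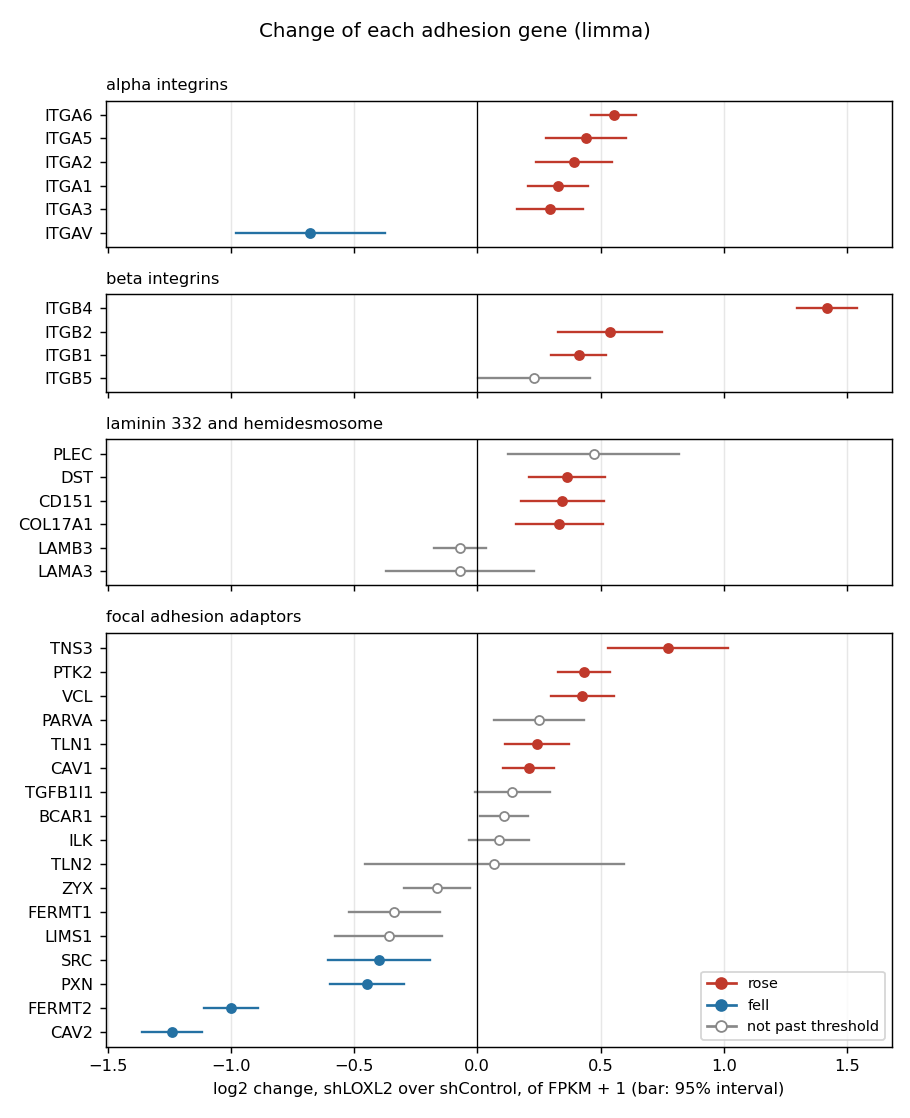
Log2 change (shLOXL2 over shControl, of FPKM + 1) of the 33 tested adhesion genes by subgroup, with 95% intervals from limma; red filled points rose, blue filled points fell and open grey points did not pass the threshold. ITGB4 (1.42) and CAV2 (-1.24) lie at the ends, and the adaptors spread to both sides of 0.

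The focal adhesion adaptors moved in both directions: of the 17 tested 5 rose and 4 fell, and the median log2 change was 0.088. The kindlins, which bind beta integrin tails and activate the receptor, were both lower in every shLOXL2 library. FERMT2, the kindlin-2 gene, had 32.8 and 34.2 FPKM in shLOXL2 and 67.6 and 68.3 FPKM in shControl and so fell to 0.493 of its shControl level (log2 change with 95% interval from -1.11 to -0.89, limma adjusted p = 0.0115). FERMT1, the kindlin-1 gene of epithelia, had 8.31 and 9.12 FPKM in shLOXL2 and 11.4 and 11.1 FPKM in shControl, a log2 change of -0.34 that did not pass (limma adjusted p = 0.0509). The ratio of FERMT1 to FERMT2 FPKM was 0.253 and 0.267 in shLOXL2 and 0.169 and 0.162 in shControl, a log2 difference of 0.65 (exact two-sided permutation test, p = 0.33, the smallest possible). FERMT2 remained the highest kindlin in all 4 libraries. The third kindlin gene, FERMT3, which is outside the set, had 2.75 and 2.30 FPKM in shLOXL2 and 3.23 and 2.82 FPKM in shControl. It did not pass (limma adjusted p = 0.349). FERMT2 and ITGB4 were the members still called with one or the other shLOXL2 library left out, and 0 members were called with one or the other shControl library left out, where limma gave 19 and 18 members at an unadjusted p below 0.05.

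The promoter of FERMT2, the adaptor gene with the second largest fall, is shown in the same way (250 bases before the start, GRCh38.p14, chr14:52951051-52951300, minus strand), with GC boxes (GGGCGG on either strand) in capitals.
FERMT2: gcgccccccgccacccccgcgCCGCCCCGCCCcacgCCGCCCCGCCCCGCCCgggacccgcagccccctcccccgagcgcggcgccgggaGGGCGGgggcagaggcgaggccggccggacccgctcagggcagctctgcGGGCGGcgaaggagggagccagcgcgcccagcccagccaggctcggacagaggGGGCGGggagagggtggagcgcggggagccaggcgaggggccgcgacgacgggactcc
It is 84.4% G and C, against a median of 57.6% over RefSeq promoters, and holds 8 GC boxes, some of which overlap by 1 base. At least 1 GC box occurs in 42.2% of promoters of this length. How many a promoter of this G and C content holds was not computed.

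Talin and vinculin, the links from integrin tails to actin, both rose. TLN1, talin-1, had 217 and 204 FPKM in shLOXL2 and 179 and 177 FPKM in shControl, a log2 change of 0.24 ± 0.044 (SE, limma adjusted p = 0.0485). VCL, vinculin, had 95.9 and 90.5 FPKM in shLOXL2 and 69.6 and 68.5 FPKM in shControl, a log2 change of 0.43 ± 0.043 (SE, limma adjusted p = 0.0213). The groups did not overlap for either gene, which was so for 73.5% of protein-coding genes at 5 FPKM or more. TLN2, the second talin, was low at 6.32 and 5.45 FPKM in shLOXL2 and 6.54 and 4.68 FPKM in shControl, and its groups overlapped. TNS3, a tensin that binds beta tails and actin, had 57.0 and 49.6 FPKM in shLOXL2 and 30.2 and 31.3 FPKM in shControl (log2 change 0.77 ± 0.083, SE, limma adjusted p = 0.0226), the largest rise of the adaptors tested. TNS4, a tensin without an actin-binding domain, had 1.98 and 1.07 FPKM in shLOXL2 and 0.502 and 0.388 FPKM in shControl, and its mean of 0.986 FPKM left it just under the filter and untested. TNS1 was at most 0.344 FPKM in any library.

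The signalling partners of the adhesion split. PTK2, the gene of focal adhesion kinase, had 285 and 288 FPKM in shLOXL2 and 216 and 208 FPKM in shControl (log2 change 0.43 ± 0.035, SE, limma adjusted p = 0.0166). SRC, the kinase that joins it, had 9.23 and 8.23 FPKM in shLOXL2 and 11.9 and 11.7 FPKM in shControl (log2 change -0.40 ± 0.070, SE, limma adjusted p = 0.0453). PXN, the scaffold paxillin, had 63.4 and 59.4 FPKM in shLOXL2 and 85.9 and 82.1 FPKM in shControl (log2 change -0.45 ± 0.051, SE, limma adjusted p = 0.0243). The kinase PTK2 thus rose where its substrate PXN and its partner SRC fell. The groups did not overlap in any of the 3, but this held for 73.5% of protein-coding genes at 5 FPKM or more. TGFB1I1, the paxillin relative Hic-5, had 22.3 and 20.8 FPKM in shLOXL2 and 19.8 and 19.1 FPKM in shControl and did not pass (limma adjusted p = 0.154). BCAR1, the scaffold p130Cas, stood near 37.5 and 37.4 FPKM in shLOXL2 and 35.1 and 34.2 FPKM in shControl (limma adjusted p = 0.115), and ZYX, the stress fibre protein zyxin, at 37.5 and 35.4 FPKM in shLOXL2 and 41.5 and 40.3 FPKM in shControl (limma adjusted p = 0.102).

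The complex of integrin-linked kinase, PINCH and parvin gave no call. ILK had 141 and 149 FPKM in shLOXL2 and 135 and 137 FPKM in shControl, with a log2 change of 0.088 (95% interval -0.033 to 0.21, limma adjusted p = 0.233). PARVA, alpha-parvin, had 61.7 and 64.0 FPKM in shLOXL2 and 55.2 and 50.3 FPKM in shControl (limma adjusted p = 0.0817). LIMS1, the PINCH-1 gene, had 7.70 and 7.17 FPKM in shLOXL2 and 10.3 and 9.35 FPKM in shControl (limma adjusted p = 0.0588). LIMS1 has near-identical copies, LIMS3 and LIMS4, which were listed at 0, so its level is uncertain. PARVB was at most 0.0402 FPKM.

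The caveolins, which coat membrane invaginations near adhesions, moved in opposite directions although RefSeq places the 2 genes next to each other on chromosome 7. CAV2 had 29.5 and 30.8 FPKM in shLOXL2 and 73.7 and 71.4 FPKM in shControl (log2 change -1.24 ± 0.042, SE, limma adjusted p = 0.0115). CAV1, the chain that builds caveolae, had 275 and 282 FPKM in shLOXL2 and 245 and 237 FPKM in shControl (log2 change 0.21 ± 0.035, SE, limma adjusted p = 0.0430). CAV2 had the largest fall of the 33 genes, while CAV1 had the smallest change of those called. The ratio of CAV2 to CAV1 FPKM, chosen after the values were seen, was 0.107 and 0.109 in shLOXL2 and 0.301 and 0.302 in shControl, a log2 difference of -1.48 (exact two-sided permutation test, p = 0.33, the smallest possible). The call of CAV1 was lost after quantile normalization and under a prior variance that had no intensity trend, and that of CAV2 with any 1 library left out, where its log2 change ran from -1.27 to -1.21. The promoters of the pair are shown because the neighbours diverged (250 bases before the most upstream start, GRCh38.p14, plus strand, CAV2 at chr7:116499488-116499737 and CAV1 at chr7:116524759-116525008), with GC boxes in capitals.
CAV2: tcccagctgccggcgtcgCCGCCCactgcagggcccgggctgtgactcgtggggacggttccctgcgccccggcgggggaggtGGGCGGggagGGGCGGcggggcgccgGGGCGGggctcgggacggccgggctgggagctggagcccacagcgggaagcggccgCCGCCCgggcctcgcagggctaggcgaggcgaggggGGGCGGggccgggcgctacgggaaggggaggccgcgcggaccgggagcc
CAV1: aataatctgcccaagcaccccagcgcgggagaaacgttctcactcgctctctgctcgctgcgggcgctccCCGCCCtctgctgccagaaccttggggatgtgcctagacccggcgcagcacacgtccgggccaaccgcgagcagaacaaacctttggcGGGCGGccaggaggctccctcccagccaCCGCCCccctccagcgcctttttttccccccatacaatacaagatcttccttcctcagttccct
The promoter of CAV2 is 83.2% G and C with 6 GC boxes, and that of CAV1 63.6% with 3. These counts were not set against promoters of like G and C content. No match to the AP-1 motif (TGANTCA), the TEAD motif (GGAATG) or CAGGTG was found in the windows of CAV2, CAV1 or FERMT2. Each was read on both strands, and these letters occur in 1794, 3264 and 4789 of the 27305 promoters of this length. The same search of the ITGA6 window found no GC box, AP-1 or TEAD match, only the 2 matches to CAGGTG.

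**Figure D4:**
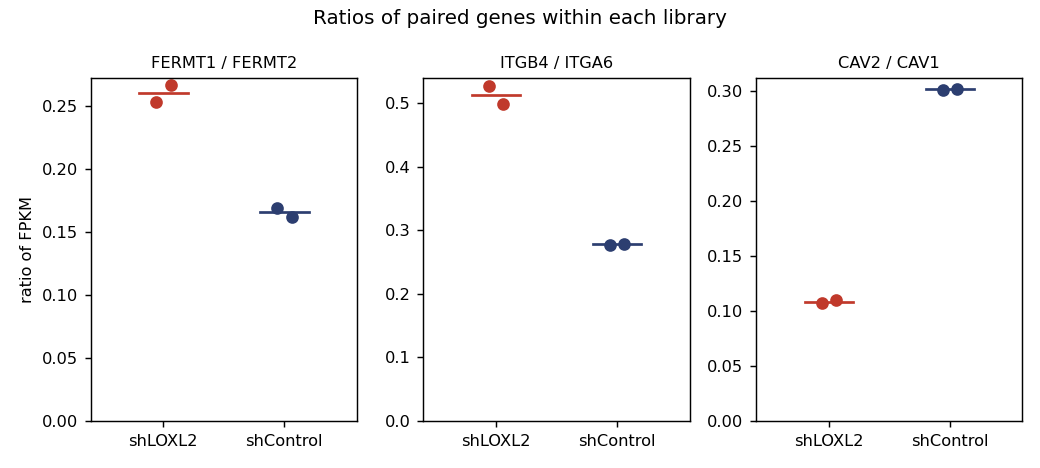
Ratio of FPKM within each library for 3 gene pairs, shLOXL2 (red) left of shControl (blue); points are libraries and lines the mean of 2, and each axis starts at 0. The ratios of FERMT1 to FERMT2 and ITGB4 to ITGA6 are higher in shLOXL2, and that of CAV2 to CAV1 is lower.

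The wider adhesion pathway was read from 93 further genes listed by function, of which 70 were tested, 14 rose and 7 fell, with a median log2 change of 0.036. This is 30.0% called, against 16.9% of all genes tested and 23.5% of the protein-coding genes at 5 FPKM or more, a level that 62 of the 70 reached. Of 8 tested integrin ligands 3 rose and 0 fell, among them LAMA5, a laminin chain of basement membranes, and FN1, fibronectin. LAMA5 had 91.2 and 79.9 FPKM in shLOXL2 and 47.8 and 48.1 FPKM in shControl. Of 18 integrin regulators 3 rose (CD9, CD63 and RASA1) and 3 fell (RAP1B, SLC3A2 and CD44). CD9, a tetraspanin, rose, at 139.8 and 156 FPKM in shLOXL2 and 90.5 and 95.01 FPKM in shControl. RAP1B, a small GTPase that activates integrins, fell, at 18.1 and 19.6 FPKM in shLOXL2 and 35.6 and 34.4 FPKM in shControl, and its copy RAP1BL, which may share its reads, was listed at 23.7 and 23.7 FPKM in shLOXL2 and 46.0 and 48.1 FPKM in shControl. SLC3A2, the CD98 heavy chain that binds beta tails, and CD44, the hyaluronan receptor, fell by 0.57 and 0.39 on the log2 scale. Of 43 other focal adhesion proteins 8 rose and 3 fell, with LASP1, an actin-binding adaptor (log2 change 0.49), among the rises, and LPXN, a relative of paxillin (-0.77), and the kinase PAK1 (-0.41) among the falls. The limma adjusted p of the genes named here by size of change ran from 0.0134 for RAP1B to 0.0440 for PAK1. The single other integrin chain above the filter, ITGAE, a partner of beta 7, fell, at 30.7 and 32.1 FPKM in shLOXL2 and 39.5 and 41.5 FPKM in shControl.

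Some members lie over other genes in RefSeq, and the sources do not tell whether fragments were counted by strand. ITGB4 overlaps GALK1, which had 13.1 and 13.7 FPKM in shLOXL2 and 16.4 and 17.7 FPKM in shControl. ITGB4, at 122 and 116 FPKM in shLOXL2 and 44.2 and 43.4 FPKM in shControl, was the higher of the 2 in every library. It was higher in shLOXL2, where GALK1 was lower. Whether shared fragments add to the level of ITGB4 was not tested. ITGA1 holds PELO (30.3 and 32.5 FPKM in shLOXL2, 33.7 and 34.8 FPKM in shControl), ILK overlaps TAF10 (111 and 115 FPKM in shLOXL2, 86.8 and 93.1 FPKM in shControl), VCL overlaps AP3M1 (31.5 and 31.8 FPKM in shLOXL2, 29.7 and 30.0 FPKM in shControl), and PXN overlaps PXN-AS1 (7.37 and 7.39 FPKM in shLOXL2, 12.1 and 10.3 FPKM in shControl). The levels of these members are uncertain to that extent.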

How the data were processed

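Expression was read from the deposited table of FPKM values, which the authors made per gene and library (per the submitters' processing notes, with Bowtie, Cufflinks and the build GRCh37; versions and annotation: not given in the sources used). Columns were tied to samples by title. All 43 members were matched by Ensembl identifier (52169 of 63657 identifiers had a symbol). The members and lists were chosen with earlier results of these data known. Genes averaging 1 FPKM or more (16987) were fitted as log2(FPKM + 1) with limma 3.58.1 in R 4.3.3 (intensity trend in the prior variance, two-sided moderated test, Benjamini-Hochberg, threshold 0.05), without a replicate block. Shares and ratios within libraries were compared by exact permutation. The FPKM values hold no read numbers; their depth is unknown and counting intervals were not computed. Over short RNA genes the commonest ratio of FPKM between libraries ran from 0.988 to 1.10. The fit was tested on simulated data. All members were described, and of the wider list the 5 largest rises and 5 largest falls past the threshold without overlap and with at least 5 FPKM in the higher group, with FN1, ITGAE, CD63 and RASA1 added after their values were seen; some genes of that list are not reported here. Promoters came from RefSeq (GRCh38.p14), which held 31 of the 43 members. Alternatives covered the pseudocount, filter, scaling, variance prior, replicate block and each library left out. Peak lists were not used here, since no GRCh37 annotation was at hand.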

Additional observations from a re-analysis of the deposited data

How the results depend on the processing

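Under each alternative fit the 21 called members kept their direction. The shares of ITGB1, ITGB2, ITGB4, ITGB5, ITGA6 and ITGAV and the 3 ratios, which were recomputed with each library left out and with 1 FPKM added, kept theirs (for ITGA6, ITGAV and the caveolin ratio this was chosen after seeing the data). Without a filter on low values 601 genes rose and 542 fell, with 5 and 2 of the members and 6 and 3 of the wider list; the members left were CAV2, FERMT2, ITGA6, ITGB1, ITGB4, PTK2 and VCL. With a variance prior without a trend 926 genes rose, with 9 members that rose and 3 that fell and 9 rises in the wider list. The calls of CAV1, CD151, COL17A1, DST, ITGA2, ITGA3, ITGAV, SRC and TLN1 ended under that prior. Fitting protein-coding genes alone, chosen after seeing the data, gave 2136 rises and 2178 falls, with 13 falls in the wider list, and added FERMT1, ITGB5, LIMS1, PARVA and PLEC to the members called. FERMT1 also passed with a pseudocount of 0.1 FPKM and at a filter of 5 FPKM. Quantile normalization ended the calls of CAV1, CD151, ITGA3 and TLN1 and added LIMS1, and a pseudocount of 5 FPKM or a filter of 5 FPKM ended that of COL17A1. With the replicate number as a block 0 genes rose and 0 fell in limma, 0 among the members and 0 in the wider list. In that fit 5519 genes and 26 members had an unadjusted p below 0.05. Same-numbered libraries did not deviate together over all genes (r = -0.0013). This single value cannot tell whether same-numbered libraries shared a culture or day, which the labels do not state. With 1 library left out, rises ran from 18 to 220 and falls from 70 to 217 over all genes, from 0 to 1 in each direction among the members, and for the wider list from 0 to 1 for rises and at 0 for falls, with 22 to 33 of its genes at an unadjusted p below 0.05. These fits have 1 residual degree of freedom in place of 2, and a lone library is assumed to vary like the other group. LAMA3 changed sign without shLOXL2 replicate 2 (0.045, with the 4 fits starting at -0.19), and TLN2 without shControl replicate 2 (-0.13) or shLOXL2 replicate 1 (-0.021, against 0.27 without shControl replicate 1); neither was called in any fit. Depth is unknown, so what it limits cannot be given.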
